A study of Mus musculus with 74 samples.

Results

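The genes described here are 46 mouse genes of the cell cycle, chosen by name for their roles in DNA replication and mitosis, with earlier results of these data known. The array carried a probe for all 46, with 47 probes in all since Mcm10 had 2, out of 13409 named genes and 16463 probes. They were divided by role into 11 genes of origin licensing (Mcm2 to Mcm7, Mcm10, Cdc6, Cdt1, Cdc45 and Gmnn), 8 genes of DNA synthesis (Pcna, Pclaf, Prim1, Pola1, Rrm1, Rrm2, Tk1 and Tyms), 8 genes of G1/S control (Ccne1, Ccne2, Ccnd2, Ccnd3, Cdk2, Cdk4, E2f1 and Rbl1) and 19 genes of G2 and mitosis. Within these, Mcm2 to Mcm7, Mcm10, Cdc6, Ccne1 and Ccne2 (10 genes) were read as the replication core, and Plk1, Bub1, Bub1b, Ttk, Aurka and Aurkb (6 genes) as the mitotic core. The study asked how HDAC7, a class IIa histone deacetylase of the thymus, regulates genes in thymic selection.

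The data were 74 two-colour arrays in 11 groups, each array pairing a test RNA with a partner RNA. In 7 groups the test RNA came from the T cell hybridoma DO11.10 and the partner was untreated DO11.10: empty MSCV retrovirus (a group of 12 arrays and another of 4), MEF2D-VP16 (4 arrays), Nur77 (4), HDAC7-VP16 (10), empty MSCV with PMA and ionomycin for 2.5 h (8 arrays) and HDAC7 DP with PMA and ionomycin for 2.5 h (8 arrays). VP16 is a viral transcriptional activation domain, MEF2D is a transcription factor that class IIa histone deacetylases bind, Nur77 is the orphan nuclear receptor encoded by Nr4a1, and PMA with ionomycin stands in for T cell receptor signalling. In 4 groups the RNA was from total thymocytes. The first set mice with the DO11.10 T cell receptor transgene over mhc -/- mice (6 arrays). The others set DO11.10 mice 3, 6 and 12 h after injection of the antigenic peptide over uninjected DO11.10 mice (6 arrays each). Uninjected DO11.10 thymocytes, labelled untreated, were thus the test RNA in the first and the partner in the others. A level particular to that RNA would enter them with opposite sign, and its part in the values was not tested. The sources used here do not say what DP stands for, which strain and age the mice had, how many there were, whether the transduced lines were clones or which promoter drove the transgene. A transduced hybridoma is an already dividing tumour-derived line, and each channel held RNA of a whole culture or of total thymocytes, so that fewer cells of a type and less RNA per cell cannot be told apart in any value below.

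Before S phase, Cdc6 and Cdt1 load the Mcm2 to Mcm7 helicase onto replication origins, geminin (Gmnn) holds Cdt1 back once origins have fired, and cyclin E (Ccne1, Ccne2) with Cdk2 drives the cell from G1 into S phase. Most of these genes are targets of E2F transcription factors and are transcribed around the G1/S boundary. The genes of mitosis, such as those of Polo-like kinase (Plk1), the Aurora kinases (Aurka, Aurkb) and the spindle checkpoint kinases (Bub1, Bub1b, Ttk), peak later, in G2 and M, largely through CHR and CCAAT promoter elements. In the thymus, proliferation belongs mainly to immature cells after the beta-selection step, and the double-positive cells that make up most of the organ divide little.

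The values are log2 ratios of test over partner RNA, centred on each array's median. In the text a gene rose or fell, or was called, where its adjusted p was under 0.05 in the limma fit over all 16463 probes; other differences are given as values only. The sign of the ratios was not stated and was taken as test over partner, since Nr4a1 itself averaged 4.50 ± 1.21 (SD, n = 4) on the Nur77 arrays and B2m and H2-Ab1, genes of MHC molecules, averaged 3.26 and 2.42 in DO11.10 over mhc -/-; the direction is therefore likely rather than stated. Arrays of opposite dye correlated positively over all probes in 8 of the 11 groups, with median r of -0.401, -0.475 and -0.241 in the 12-array empty virus, HDAC7-VP16 and 4-array empty virus groups. Replicates 3 and 9 of the 12-array empty virus group correlated below -0.3 with arrays of the same dye (10 of 300 and 9 of 300 pairs, each including one of them), so their direction is unsettled and counts that rest on this group are given with their sign turned too. One HDAC7-VP16 array has a source label naming empty virus and was kept by its title, and slides 5 to 8 of series 13 are named by arrays of more than 1 peptide time. Spot brightness was not used here, so whether a gene, or a marker of the labelled tissue, was above background on an array could not be checked, and nothing in the labels says that arrays of a group came from separate cultures or animals: the p-values then reflect array-to-array spread alone, and that spread may be technical.

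Across the 11 comparisons of a group with its control or partner, 42 of the 46 genes were called at least once. Cdc6, the licensing ATPase, and Ccne2, cyclin E2, were called most often, in 5 comparisons each: Ccne2 fell in all 5, and Cdc6 fell in 4 and rose in 1. The genes never called were 4, Pcna (the polymerase clamp), Rrm1 and Rrm2 (ribonucleotide reductase) and Ccnb2 (cyclin B2). Ccnd2, the cyclin D that T cells induce on stimulation, rose in 3 comparisons and fell in 1. Outside the comparison with mhc -/- thymocytes, the other genes with a rise were Ccnd3, Ccne1 and Prim1, in 1 comparison each.

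**Figure D1:**
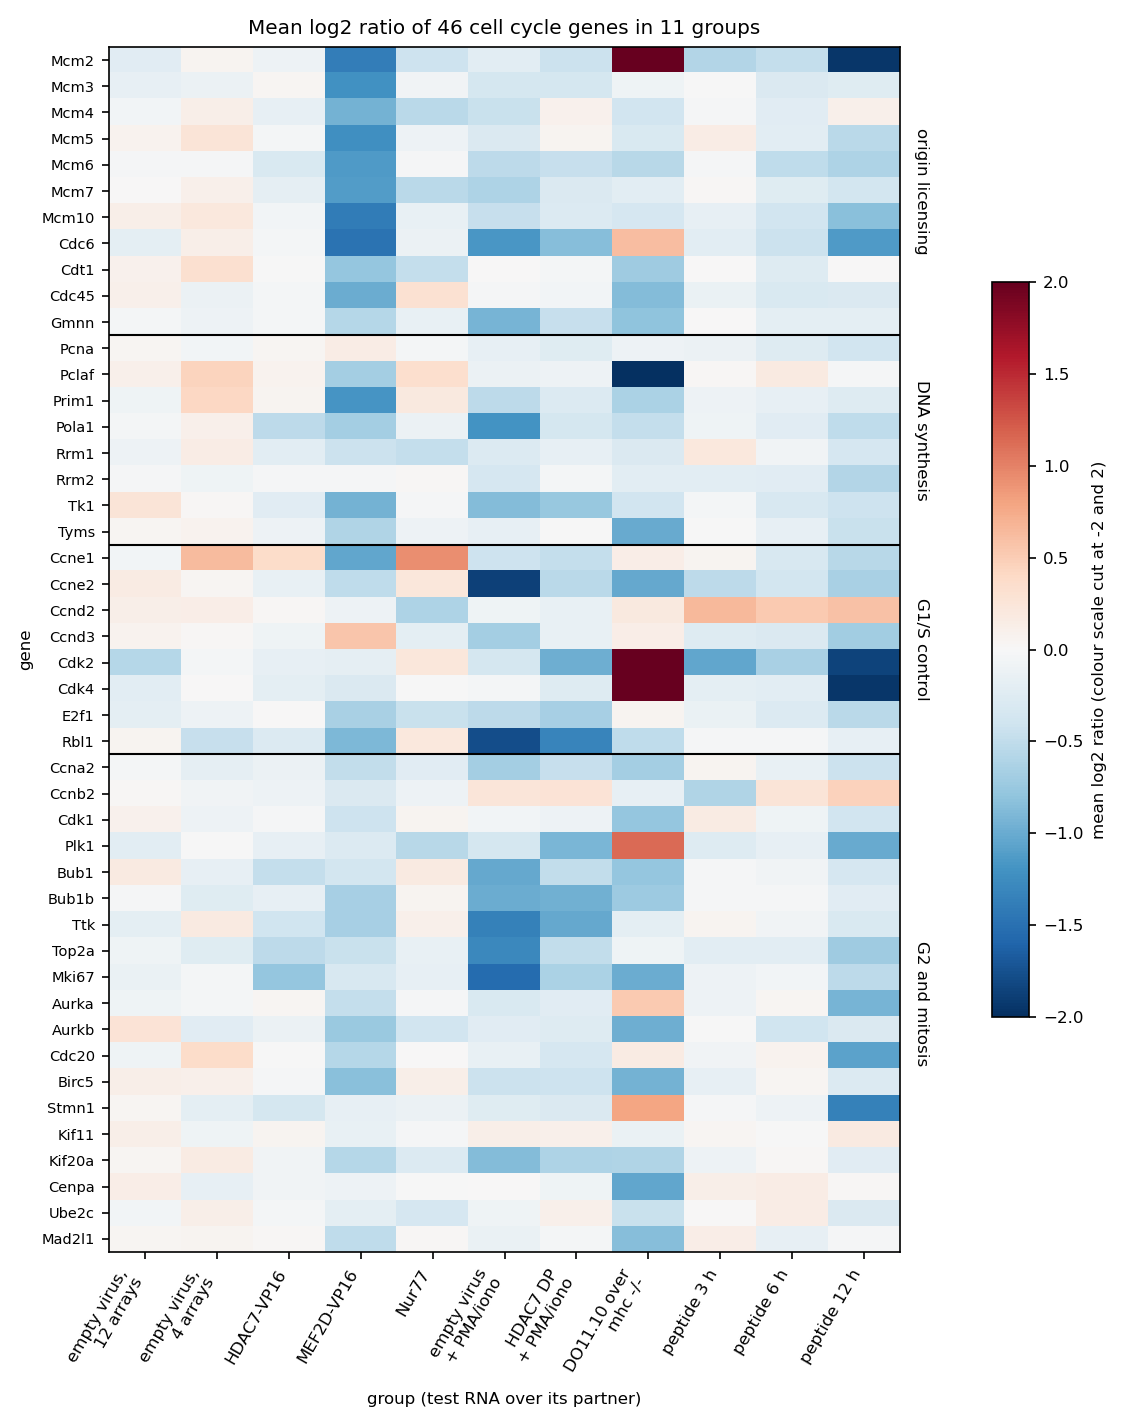
Colour shows the mean log2 ratio of each of the 46 genes (rows, ordered by role) in each of the 11 groups (columns), with test RNA over its partner and the scale cut at -2 and 2. The licensing block is blue in MEF2D-VP16, where 10 of 11 genes fell against empty virus. Mcm2, Cdk2 and Cdk4 are dark red in DO11.10 over mhc -/- and dark blue at 12 h of peptide. Uninjected DO11.10 is the test RNA in the former and the partner in the latter. Mcm2, Cdk2 and Cdk4 were not called at 12 h, where their low means came from the slides outside series 13.

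With MEF2D-VP16 the licensing genes were lower as a block. Against the empty-virus group of 4 arrays, 10 of the 11 licensing genes fell, all but Gmnn, with a median log2 difference of -1.12. Of all 46 genes 22 fell and 1 rose, 23 of 46 called, against 12.6% of all probes called and 6.16% called lower; the median difference was -0.55 over the 46 genes and -0.00 over all probes. The replication core gave 9 of 10 genes lower with a median of -1.33, and the mitotic core 2 of 6 with a median of -0.42.

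The log2 ratios of Mcm5, a helicase subunit, were 0.22, 0.21, 0.31 and 0.29 with empty virus and -1.20, -1.25, -1.11 and -1.33 with MEF2D-VP16. Mcm5 thus fell 2.79-fold, by 1.48 ± 0.11 (SE) on the log2 scale, with an adjusted p of 6.42e-05. Cdc6 had -0.10, -0.25, 0.32 and 0.50 with empty virus and -1.42, -1.57, -1.32 and -1.56 with MEF2D-VP16. For both genes every MEF2D-VP16 array lay below every empty-virus array by a wide margin, and Cdc6 fell 3.00-fold with an adjusted p of 0.000371. Mcm10, which joins the helicase at firing, had 0.37, 0.54, -0.10 and 0.01 with empty virus against -1.37, -1.45, -1.25 and -1.52, and fell 3.03-fold (adjusted p 7.12e-05); its second probe fell by 1.21 on the log2 scale (adjusted p 0.000938). The remaining helicase subunits Mcm2, Mcm3, Mcm4, Mcm6 and Mcm7 fell by 1.44, 1.09, 1.07, 1.12 and 1.22 on the log2 scale, the helicase-loading factor Cdt1 by 1.09 and the helicase partner Cdc45 by 0.87, with adjusted p from 0.000323 for Mcm2 to 0.0122 for Mcm4. In these 10 genes no MEF2D-VP16 array overlapped the empty-virus arrays. How many of all probes separated in this way was not counted, so this separation is not read as particular to them. The median licensing gene of an array stood between -1.33 and -1.01 with MEF2D-VP16 and between -0.13 and 0.25 with empty virus.

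Geminin stood apart from the other licensing genes. Its log2 ratios were -0.81, -0.91, 0.79 and 0.51 on the empty-virus arrays and -1.01, -0.24, -0.70 and -0.33 with MEF2D-VP16, so the groups overlapped and the difference of -0.47 was not called (adjusted p 0.178). The empty-virus values split by dye, with the first 2 arrays carrying the test RNA in Cy5 and the other two in Cy3; the dye is a term in the fit.

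Genes of DNA synthesis and G1/S control were called in part. The primase subunit Prim1 had 1.12, 0.70, -0.14 and 0.01 with empty virus and -1.47, -1.58, -0.80 and -0.84 with MEF2D-VP16, and fell 3.02-fold (SE 0.25 on the log2 scale, adjusted p 0.00299). Thymidine kinase Tk1 had 0.09, 0.45, -0.29 and -0.14 against -0.86, -1.02, -0.72 and -1.20 and fell 1.97-fold (adjusted p 0.00119). Neither gene's groups overlapped. The PCNA-associated factor Pclaf, with 1.49, 0.96, -0.49 and -0.20 against -0.82, -0.95, -0.60 and -0.35, overlapped between groups and fell by 1.12 ± 0.32 (SE) on the log2 scale with an adjusted p of 0.0468, while Pola1 and Tyms fell by 0.78 and 0.67. Ccne1, cyclin E1, was the gene with the largest difference of the 46: 1.63, 1.10, -0.08 and -0.09 with empty virus against -0.90, -1.38, -0.86 and -1.02 with MEF2D-VP16. It fell 3.2-fold (adjusted p 0.00155), and the empty-virus arrays, 2 of which were far above 0, all lay above the MEF2D-VP16 arrays. For Ccne1, Prim1 and Pclaf the empty-virus values split by dye, the first 2 arrays, with the test RNA in Cy5, being the higher. Part of the falls of Ccne1 and Prim1 lay in the control: both were called higher in this empty-virus group over untreated cells. Ccne2, with 0.07, -0.10, 0.17 and 0.03 against -1.20, -0.18, -0.41 and -0.24, was not called (-0.55 on the log2 scale, adjusted p 0.0877), although its groups did not overlap. The activating factor E2f1 fell by 0.55 ± 0.11 (SE) on the log2 scale (adjusted p 0.0108; 0.02, -0.02, -0.24 and -0.15 against -0.45, -0.79, -0.69 and -0.66). Cyclin D3 (Ccnd3) was the only one of the 46 genes to rise, by 0.53 ± 0.13 (SE) on the log2 scale with an adjusted p of 0.0244, from -0.39, -0.16, 0.26 and 0.39 to 0.34, 0.61, 0.53 and 0.75, with overlap between the groups.

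Of the 19 genes of G2 and mitosis, 5 fell and 14 were not called, with a median log2 difference of -0.31. Survivin (Birc5), a subunit of the chromosomal passenger complex, had -0.01, 0.34, -0.01 and 0.11 with empty virus against -1.05, -0.80, -0.81 and -0.67 and fell 1.91-fold (adjusted p 0.00196). Cdc20, the activator of the anaphase-promoting complex, had 0.25, 0.27, 0.26 and 0.68 against -0.57, -0.49, -0.59 and -0.61 and fell 1.9-fold (adjusted p 0.00147). Both were separated completely between groups. The checkpoint kinase Ttk, with 0.39, 0.25, 0.04 and 0.01 against -0.99, -1.11, -0.15 and -0.41, fell 1.79-fold (adjusted p 0.0253), and Kif20a and Aurka fell by 0.75 and 0.43 on the log2 scale (adjusted p 0.0316 and 0.043). The MEF2D-VP16 values of Ttk split by pairs of neighbouring slide numbers, with the first pair lower, and those of Prim1 did too. The part of the slides was not tested. Plk1 had -0.28, -0.03, 0.28 and -0.02 against -0.11, -0.18, -0.26 and -0.57, a difference of -0.27 that was not called (adjusted p 0.357). Bub1 likewise overlapped, with -0.39, -0.19, -0.39 and 0.33 against -0.79, -0.39, -0.02 and -0.25 (adjusted p 0.634). Leaving out single arrays of the 8 took away the call of Aurka each time, of Ttk, Pclaf and Ccnd3 in 6 of 8 cases, of Pola1 in 5, of Kif20a in 4 and of Tyms in 1, while the 10 licensing calls were kept in all 8. With all 16 empty-virus arrays as the control Cdc20 (adjusted p 0.0505), Ttk, E2f1, Ccnd3 and Pola1 lost their calls, and E2f1 lost it also with all 74 arrays in one fit (adjusted p 0.128).

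**Figure D2:**
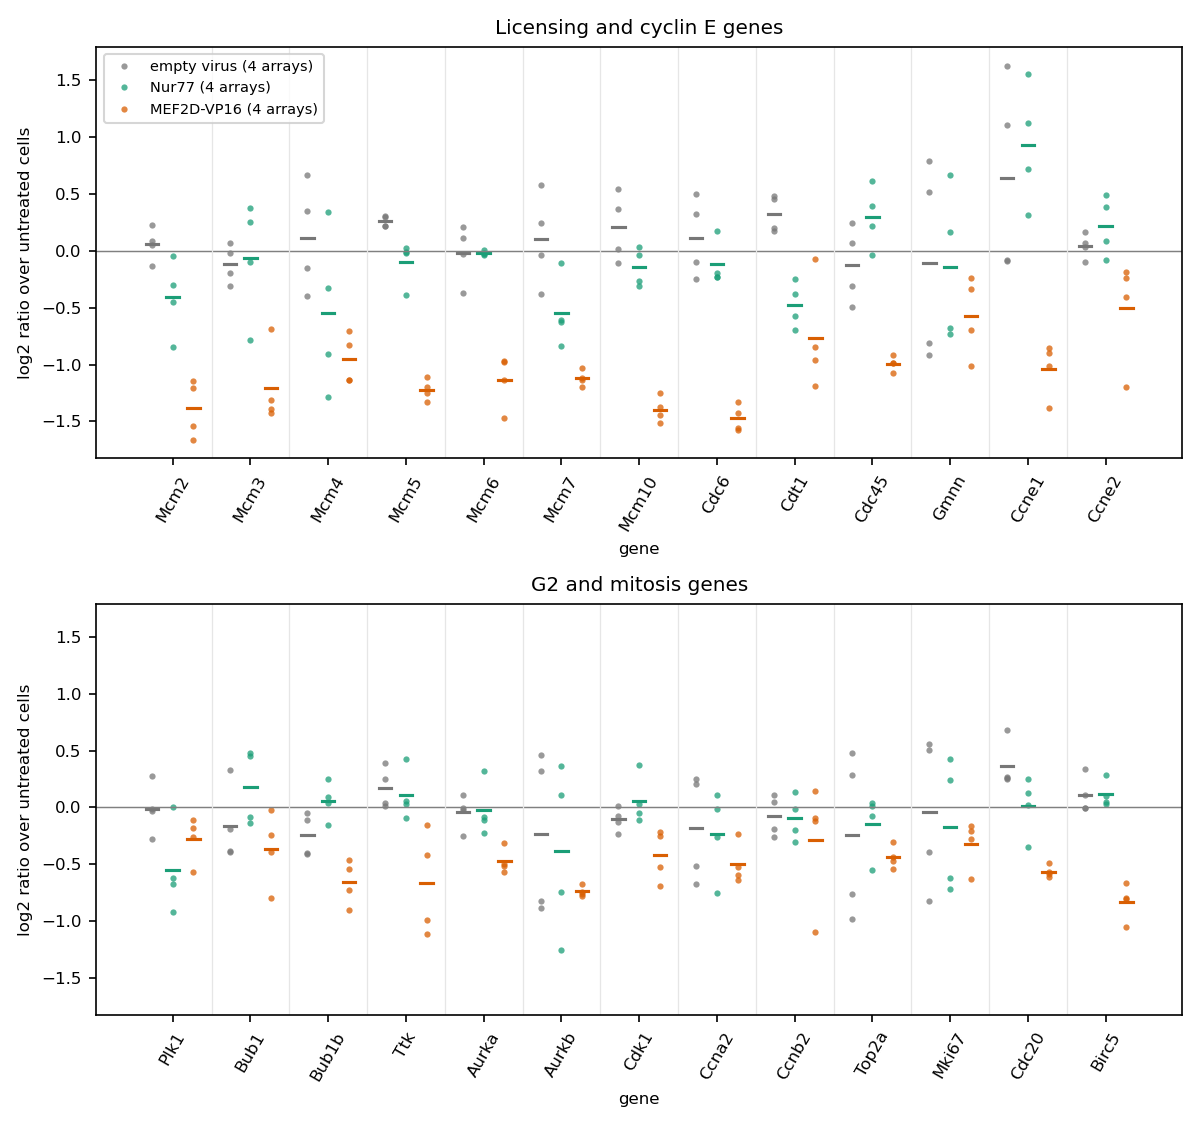
Each dot is 1 array's log2 ratio over untreated hybridoma cells and each bar a mean, for 4 arrays each of empty virus, Nur77 and MEF2D-VP16; licensing and cyclin E genes are above, genes of G2 and mitosis below, on the same vertical scale. The MEF2D-VP16 arrays lie under the empty-virus arrays for every licensing gene but Gmnn, whereas for Plk1 and Bub1 they overlap.

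Other genes of the same processes were read from lists of genes that are not among the 46. These lists were drawn up with earlier results of these data known and read on the same arrays, so they are not separate support. Of 40 further replication genes on the array 22 fell, with a median of -0.68, led by Orc1 (origin recognition, -1.55 on the log2 scale), the histone chaperone Nasp (-1.24) and Gins1 (-1.18). Of 58 further genes in a mitosis list 10 fell, with a median of -0.40, led by Mybl2 (-1.33), Melk (-1.07) and Cdca7 (-1.03). That list, made by name, is not confined to G2 and M: Mybl2, Cdca7 and Cdc25a in it are transcribed around the G1/S boundary. Among 12 genes that restrain the cell cycle 3 rose: Ccng2, an atypical cyclin of non-dividing cells, by 3.38, the CDK inhibitor Cdkn2d by 0.89 and the pocket protein Rbl2 by 0.80. For Ccng2 much of this lay in the control: over untreated cells it was -2.23 in this empty-virus group (adjusted p 1.12e-05) but 0.82 in the group of 12 arrays, and Cdkn2d was -0.33, called lower, in this group.

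The promoters of the 46 genes, called or not, were read for the elements named above. RefSeq promoters (GRCm38.p6) were available for 38 of the 46 genes, each 300 bases long, from 250 before to 50 after the start the table uses. An E2F element (TTTGGCGC, TTTCCCGC, TTTCGCGC or TTTGCCGC, either strand) was in 6 of 9 licensing promoters (66.7%), 2 of 8 of DNA synthesis, 2 of 6 of G1/S control and 1 of 15 of mitosis (6.67%), against 2.32% of all 27025 promoters. A CHR element (TTTGAA, either strand) was in 12 of 15 mitotic promoters (80.0%), 2 of 9 of licensing and none of the 14 others, against 18.1% of all promoters. CCAAT on either strand was in 27 of 38 (71.1%; all promoters 37.9%), and the MEF2 letters (CTA, any 4 bases, TAG) were in 0 of 38 (all promoters 3.7%), which says only that these letters are not in these windows. A match describes the letters and is not a bound site. E2F matches did not track the calls with MEF2D-VP16: Mcm2, Mcm10, Cdc45, Prim1 and Ccne1 fell without a match. Cdk2 and Rbl1 had a match and were not called. Below are the 170 bases just before the start the table uses for 3 licensing genes that fell and have an E2F match. Cdc20, a mitotic gene without an E2F match that also fell, is shown with them. The stretches run 5′ to 3′ along the gene's strand with the E2F, CHR and CCAAT letters in capitals.

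Mcm5 lies at chr8:75109339-75109508 (plus strand), Mcm6 at chr1:128359706-128359875 (minus strand), Cdc6 at chr11:98907981-98908150 (plus strand) and Cdc20 at chr4:118437344-118437513 (minus strand). The table's start is at the outer edge of the RefSeq gene span for Mcm6 and Cdc20 but 41 bases inside it for Mcm5 and 442 bases inside it for Cdc6, whose stretch therefore lies within the annotated gene and downstream of its outermost start.
Mcm5: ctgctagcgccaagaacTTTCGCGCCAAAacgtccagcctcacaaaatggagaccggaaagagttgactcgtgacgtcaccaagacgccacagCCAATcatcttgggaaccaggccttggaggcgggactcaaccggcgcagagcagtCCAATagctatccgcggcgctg
Mcm6: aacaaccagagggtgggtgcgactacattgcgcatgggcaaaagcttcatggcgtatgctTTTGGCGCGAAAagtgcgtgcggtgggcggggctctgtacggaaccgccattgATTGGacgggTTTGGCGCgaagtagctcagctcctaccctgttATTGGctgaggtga
Cdc6: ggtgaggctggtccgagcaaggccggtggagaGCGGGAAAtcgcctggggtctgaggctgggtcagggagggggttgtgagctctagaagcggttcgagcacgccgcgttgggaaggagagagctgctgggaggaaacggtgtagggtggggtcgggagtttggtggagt
Cdc20: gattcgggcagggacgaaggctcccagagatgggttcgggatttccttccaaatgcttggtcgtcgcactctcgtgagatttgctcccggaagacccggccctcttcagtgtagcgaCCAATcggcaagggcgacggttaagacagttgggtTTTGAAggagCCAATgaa

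In Mcm5 the E2F letters are 2 overlapping matches whose first bases lie 153 and 149 bases before the start the table uses, with CCAAT letters at 77 and 22. Mcm6 has E2F matches at 110, 106 (overlapping) and 47 and CCAAT letters at 57 and 14 bases before the start. Cdc6 has 1 E2F match, at 138, and no CCAAT letters in the stretch shown. Cdc20 has no E2F match and carries its CHR at 18 and CCAAT letters at 53 and 8 bases before the start.

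With Nur77 few of the genes were called. Against the same 4 empty-virus arrays, which the MEF2D-VP16 comparison shares, 4 of the 46 genes fell and none rose (8.7%, near the 6.91% of all probes called, with 3.29% called lower): Cdt1, Mcm4, Mcm7 and Ccnd2. The median difference of the 11 licensing genes was -0.35 and of the 19 mitotic genes -0.02, with -0.05 over the 46. Cdt1 had 0.20, 0.48, 0.17 and 0.45 with empty virus and -0.69, -0.24, -0.38 and -0.57 with Nur77, and fell 1.74-fold (log2 -0.80 ± 0.14, SE; adjusted p 0.00519). Its groups did not overlap. Ccnd2 had -0.47, -0.13, 0.49 and 0.62 against -0.91, -1.39, 0.16 and -0.34, overlapping, and fell 1.68-fold (adjusted p 0.0164). Mcm4 (-0.40, -0.15, 0.67 and 0.35 against -0.91, -1.29, 0.34 and -0.33) and Mcm7 (-0.38, -0.03, 0.57 and 0.24 against -0.61, -0.84, -0.10 and -0.62) fell by 0.66 and 0.64 on the log2 scale, with adjusted p of 0.045 and 0.0317. Cdt1 alone kept its call under every alternative tried: leaving out 1 array took the call from Mcm4 in 7 of 8 cases, from Mcm7 in 5 and from Ccnd2 in 2, and left 1 gene called without empty-virus replicate 2 or 4 and 2 genes without empty-virus replicate 3 or Nur77 replicate 2.

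Most genes that fell with MEF2D-VP16 were not called with Nur77. Mcm5 stood at -0.02, 0.02, -0.01 and -0.39 (difference -0.36, adjusted p 0.12) and Cdc6 at -0.23, -0.19, 0.17 and -0.23 (adjusted p 0.393). Ccne1 stood at 1.12, 1.55, 0.31 and 0.72, above 0 on all 4 arrays like 2 of the empty-virus arrays, and its difference of 0.29 was not called (adjusted p 0.455); Ccne2 differed by 0.18 (adjusted p 0.472). Plk1 had -0.62, -0.92, 0.00 and -0.67 (difference -0.54, adjusted p 0.0777), while Bub1, Ttk and Aurka differed by 0.34, -0.07 and 0.02 with adjusted p of 0.267 or more. Of the further lists, 7 of 40 replication genes and 5 of 58 genes of the mitosis list fell, including Pole (-0.63) and Mybl2 (-0.93). Of the genes that restrain the cycle Ccng2 and Rbl2 rose by 0.88 and 0.79 while Cdkn1c and Cdkn1a fell by 0.71 and 0.57. The control had Ccng2 at -2.23 and Cdkn1a at 0.51 over untreated cells, both called.

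MEF2D-VP16 was also set directly against Nur77, a comparison added after the data were seen. Of the 46 genes 17 were lower with MEF2D-VP16 and 1, Ccnd3, was higher (39.1%; 13.0% of all probes called, 6.23% called lower), among them 8 of 11 licensing genes (median -1.12), 9 of the 10 genes of the replication core and 1 of 6, Bub1b, of the mitotic core. Ccne1 differed 3.91-fold (log2 -1.97 ± 0.17, SE; adjusted p 0.000146), with all MEF2D-VP16 arrays below all Nur77 arrays. Mcm5 and Cdc6 differed by -1.12 and -1.35 on the log2 scale (adjusted p 0.000443 and 0.000312). Plk1, with a difference of 0.27 in the other direction, was not called (adjusted p 0.471). Leaving out single arrays of the 8 took the call from Cdc20 in 7 cases, from Mcm7 and Pclaf in 6, from Ccne2 in 4 and from Ccnd3 in 2.

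Empty virus alone gave few calls. On the 12 arrays of the larger group Cdk2, the cyclin E kinase, was the 1 gene called (2.17%; 1.97% of all probes), with log2 ratios from -1.24 to 0.21 (median -0.71) and a mean of -0.58 ± 0.48 (SD, n = 12; adjusted p 0.0118); with the 2 arrays of unsettled direction turned, 0 were called. The second probe of Mcm10, which was not used for the count, was also lower there (-0.33, adjusted p 0.0129). On the 4 arrays of the smaller group Ccne1 and Prim1 were higher than in untreated cells (0.64 and 0.42 on the log2 scale, adjusted p 0.0126 and 0.0401) and Rbl1, the p107 pocket protein, was lower (-0.45, adjusted p 0.0281), 6.52% of the 46 genes against 5.72% of all probes. These calls rested on single arrays and on the dye term: without replicate 3 or 4, or without the dye term, 0 genes were called, and without replicate 1 there was 1.

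With HDAC7-VP16 a single gene was called. Against the 12 empty-virus arrays 1 gene fell, Bub1 (2.17%; 2.72% of all probes), and the median difference was -0.10 over the 46 and -0.00 over all probes. Bub1 ran from -1.07 to 0.16 with HDAC7-VP16 (median -0.38, mean -0.47 ± 0.40 SD, n = 10) and from -0.21 to 0.80 with empty virus (median 0.09, mean 0.18 ± 0.32 SD, n = 12). The ranges overlapped, and the difference of -0.66 ± 0.14 (SE) on the log2 scale had an adjusted p of 0.00713; the call was lost with the arrays of slide series 14 alone. Ccne1 ran from -0.26 to 1.27 (median 0.33) against -0.43 to 0.65 (median -0.09), a difference of 0.41 with an adjusted p of 0.0991. Mcm5, Cdc6, Ccne2, Plk1, Ttk and Aurka differed by -0.12, 0.16, -0.31, 0.06, -0.20 and 0.14 on the log2 scale with adjusted p of 0.505 or more, and Mki67, the proliferation marker, by -0.65 (adjusted p 0.118). With the 2 unsettled empty-virus arrays turned or left out 2 genes were called.

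After 2.5 h of PMA with ionomycin, genes of every role fell. Compared with the 12 unstimulated empty-virus arrays, which the HDAC7-VP16 comparison shares, 12 of the 46 genes fell and none rose (26.1%; 12.5% of all probes called, 6.43% called lower), with a median of -0.35 over the 46 and -0.01 over all probes. The 12 were 4 of 11 licensing genes (Cdc6, Gmnn, Mcm7 and Mcm5), 1 of 8 of DNA synthesis (Tk1), 3 of 8 of G1/S control (Ccne2, Rbl1 and Ccnd3) and 4 of 19 of mitosis (Bub1, Ttk, Bub1b and Kif20a). With the 2 unsettled empty-virus arrays turned, 16 were called. With same-numbered slides averaged the count was 6, and Ccne2, Rbl1, Bub1, Ttk, Gmnn and Tk1 lost their calls; slide series 14 alone gave 0 and series 15 alone 4. The response gene Nr4a1 averaged 4.30 on the 8 arrays.

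Cdc6 ran from -2.11 to -0.64 on the 8 stimulated arrays (median -1.08) and from -0.55 to 0.26 on the 12 empty-virus arrays (median -0.24). It was the only one of the 46 whose groups did not overlap, with a difference of -0.96 ± 0.17 (SE) on the log2 scale (adjusted p 0.000529). Separation over all probes was not counted. Ccne2 ran from -3.58 to -0.28 (median -1.79) against -0.49 to 0.54 (median 0.23), and Rbl1 from -3.35 to -0.18 (median -1.56) against -0.63 to 0.68 (median 0.06). Both ranges were very wide and overlapped empty virus at the upper end; the differences were -2.03 ± 0.43 and -1.83 ± 0.38 (SE) with adjusted p of 0.00284 and 0.0023. Bub1 ran from -2.48 to 0.43 (median -0.53) and Ttk from -2.61 to -0.29 (median -1.35), with differences of -1.20 and -1.16 (adjusted p 0.0219 and 0.0218). Bub1b, the BubR1 kinase, and Gmnn fell by 0.98 and 0.89 (adjusted p 0.000764 and 0.00817), from ranges of -1.72 to -0.30 and -1.82 to -0.25. Tk1 (-1.44 to -0.10), Ccnd3 (-1.41 to 0.11) and Mcm7 (-1.32 to 0.09) fell by 1.14, 0.76 and 0.61, and Mcm5 (-0.52 to 0.06) by 0.36 (adjusted p 0.0146), each overlapping with empty virus. Ccne1, Plk1 and Aurka differed by -0.37, -0.14 and -0.21 and were not called (adjusted p 0.101, 0.693 and 0.084).

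The width of these ranges followed the slides. The 8 stimulated arrays were slides 13 to 16 in each of 2 slide series, and the labels do not say which RNA preparation each slide carried. Ccne2 stood at -0.50, -0.28, -0.48 and -0.59 on slides 13 and 14 and at -3.43, -2.99, -3.58 and -3.09 on slides 15 and 16. The 4 arrays of one pair were far from the 4 of the other, with both dyes and both slide series in each pair. Mki67 gave -0.24, -0.01, -0.04 and -0.04 on slides 13 and 14 and -3.43, -2.97, -2.99 and -2.57 on slides 15 and 16, and was not called over the 8 (adjusted p 0.0508). Means on slides 13 and 14 against 15 and 16 were -0.55 and -2.99 for Rbl1, 0.06 and -2.46 for the polymerase subunit Pola1, -0.08 and -2.49 for topoisomerase Top2a, 0.00 and -2.04 for Bub1 and -0.45 and -2.27 for Ttk. Cdc6, at -0.99, -0.64, -0.69 and -0.75 on the first pair and -1.47, -1.48, -2.11 and -1.17 on the second, and Mcm5, with means of -0.34 and -0.23, were far less divided. Over the 46 genes the median of the means was -0.07 on slides 13 and 14, with 0 genes at 2-fold or more below the partner, and -0.66 with 15 such genes on slides 15 and 16. Nr4a1 averaged 3.67 and 4.92 on the pairs, far above 0 on both. Against empty virus 3 genes were called from slides 13 and 14 alone and 21 from slides 15 and 16 alone, a split made after the data were seen. With the pair as a random block 11 were called. These counts are given without the share of all probes called in the same fits. The part of the slides in the result was not tested beyond these values.

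**Figure D3:**
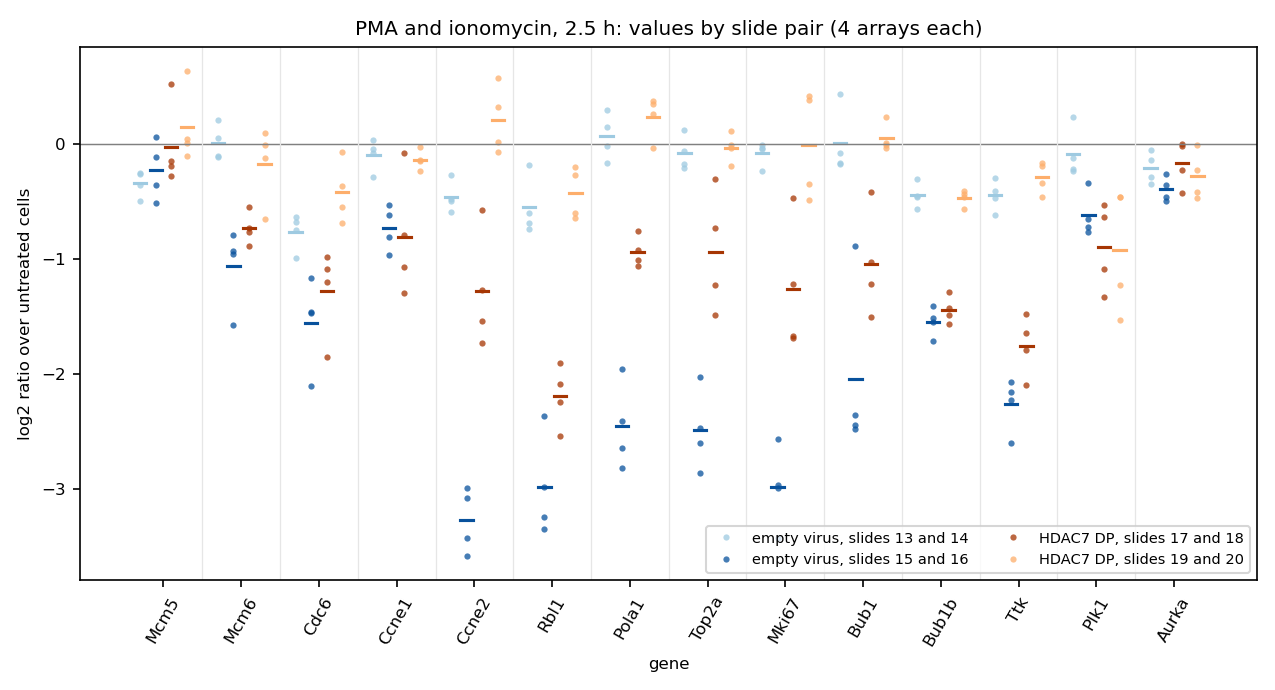
Each dot is 1 array's log2 ratio over untreated cells and each bar the mean of 4 arrays, for 14 of the genes after 2.5 h of PMA and ionomycin, with empty virus (blue) and HDAC7 DP (orange) split by slide pair. For Ccne2 and Mki67 the empty-virus arrays of slides 15 and 16 lie between -3.58 and -2.57 and those of slides 13 and 14 between -0.59 and -0.01.

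Of the further lists, 13 of 40 replication genes fell in this comparison, led by the mismatch repair gene Msh6 (-1.45 on the log2 scale), Dck (-1.07) and Timeless (-1.05). In the mitosis list 20 of 58 genes fell, led by the condensin subunit Smc2 (-1.58), Kif18a (-1.52) and Ncapg (-1.13). Among genes that restrain the cycle the CDK inhibitors Cdkn1a, Cdkn2b and Cdkn1b rose by 1.41, 1.18 and 0.31, while Ccng2, Rbl2 and Cdkn2d fell by 2.59, 0.96 and 0.57. Among G1 regulators Cdk6, E2f3 and Myc rose by 0.66, 0.65 and 0.56, and Skp2, which targets p27 for destruction, fell by 1.11. Part of this lay in the control: over untreated cells the unstimulated empty virus had Cdk6 at -0.44, Ccng2 at 0.82 and Cdkn1a at 0.43, all called.

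HDAC7 DP was compared with empty virus under the same stimulus. By limma 0 of the 46 genes were called (1.65% of all probes), and the median difference was 0.09. At an unadjusted p under 0.05 there were 5. The share of all probes at that unadjusted threshold is not given, so the 5 are not read as particular to the 46 genes. HDAC7 DP arrays split by slide as well, Ccne2 averaging -1.28 (slides 17 and 18) and 0.21 (slides 19 and 20), with -2.20 and -0.43 for Rbl1, -1.76 and -0.29 for Ttk, -1.26 and -0.01 for Mki67 and -1.04 and 0.05 for Bub1. There were 10 genes at 2-fold or more below the partner on slides 17 and 18 and 0 on slides 19 and 20. Nr4a1 averaged 2.80 and 0.97 on these pairs, and so moved with them here. Ccne2 ran from -1.74 to 0.57 (median -0.32) with HDAC7 DP, and its difference of 1.33 from empty virus had an adjusted p of 0.364; Cdc6 ran from -1.85 to -0.07 (median -0.84; adjusted p 0.704) and Ttk from -2.10 to -0.16 (median -0.97; adjusted p 0.823). Plk1 ran from -1.53 to -0.46 (median -0.86) and was 0.55 below empty virus on the log2 scale (adjusted p 0.179), and Mcm5, Ccne1, Bub1 and Aurka differed by 0.34, -0.06, 0.52 and 0.08 with adjusted p of 0.168 or more. With pairs matched after the data were seen, slides 17 and 18 against 15 and 16 gave 6 genes higher with HDAC7 DP, and slides 19 and 20 against 13 and 14 gave 2. The share of all probes called in these fits is not given, so neither count is read as particular to the 46 genes.

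Cdk2 divided the HDAC7 DP arrays another way. Its log2 ratios were -2.02, -1.51, -1.55 and -2.10 in slide series 14 and 0.02, -0.08, -0.00 and -0.59 in series 15, so that the series, and not the slide number, separated the values.

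In DO11.10 over mhc -/- thymocytes most of the genes were called, in both directions. Of the 46 genes 26 were lower and 7 higher in DO11.10 (71.7%), in a comparison where 36.3% of all probes were called, 15.8% lower and 20.5% higher; the median was -0.36 over the 46 and -0.01 over all probes. The 19 mitotic genes gave 12 lower and 3 higher, the 11 licensing genes 8 lower and 2 higher, the 8 synthesis genes 4 lower, and the 8 G1/S genes 2 in each direction.

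The genes with the largest rise were Cdk4 and Cdk2, the G1 kinases, and Mcm2. Cdk4 ran from 1.94 to 3.43 over the 6 arrays (median 2.83, mean 2.76 ± 0.64 SD, adjusted p 5.35e-05). Cdk2 ran from 2.22 to 3.18 (median 2.79, mean 2.75 ± 0.31 SD, adjusted p 2.78e-06). Mcm2 ran from 1.40 to 2.67 (median 2.30, mean 2.14 ± 0.55 SD, adjusted p 0.000102). All 3 were far above 0 on every array, though Mcm2 averaged 2.47 on slides 1 to 4 and 1.47 on slides 17 and 18. The other helicase subunits did not follow Mcm2: Mcm5 ran from -0.45 to -0.21 (mean -0.31 ± 0.09 SD, adjusted p 0.00228), Mcm4, Mcm6 and Mcm7 fell by 0.39, 0.56 and 0.21, and Mcm3 averaged -0.08 and was not called. The call of Mcm7 was lost with all 74 arrays in one fit and on slides 1 to 4 alone (adjusted p up to 0.433). Mcm10 fell by 0.34, but its second probe gave 0.21 in the other direction (adjusted p 0.0219), so the gene's direction is not settled. Cdc6 rose, from -0.08 to 1.21 over the arrays (median 0.64, mean 0.62 ± 0.49 SD, adjusted p 0.0146), while Cdc45, Gmnn and Cdt1 fell by 0.87, 0.81 and 0.71.

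Pclaf fell furthest, from -4.40 to -2.81 over the 6 arrays (median -3.98, mean -3.88 ± 0.61 SD, adjusted p 6.18e-06). Thymidylate synthase Tyms fell by 1.00 (-1.69 to -0.59) and Prim1 by 0.64 (-1.09 to -0.26). The cyclins E differed from each other: Ccne2 ran from -1.38 to -0.73 (mean -1.03 ± 0.23 SD, adjusted p 7.77e-05), whereas Ccne1 ran from -0.26 to 0.49 and was not called (adjusted p 0.337). The mitotic genes were divided too. Plk1 was above 0 on all 6 arrays, from 0.89 to 1.39 (mean 1.13 ± 0.17 SD, adjusted p 7.09e-06), Aurka from 0.14 to 1.02 (mean 0.52, adjusted p 0.0106) and the microtubule regulator Stmn1 from 0.30 to 1.10 (mean 0.79, adjusted p 0.00146). Bub1, from -1.10 to -0.36 (mean -0.77, adjusted p 0.00115), the centromere histone Cenpa, from -1.27 to -0.84 (mean -1.03, adjusted p 2.1e-05), and Mki67, from -1.49 to -0.43 (mean -0.99, adjusted p 0.000497), were below 0 on all arrays. Ttk ran from -0.48 to 0.17 and was not called (adjusted p 0.119).

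Further genes were divided in the same manner. Of 40 replication genes 22 fell and 9 rose, the latter led by the polymerase subunit Pold1 (2.00 on the log2 scale), Rpa2 (1.49) and Chaf1a (1.45). Of the 58 genes of the mitosis list 32 fell, led by Cenpf (-1.03), Kif22 (-1.01) and Cdca3 (-1.01), and 11 rose, led by Kif23 (1.65), Mybl2 (1.05) and Kif2c (1.04). Among genes that restrain the cycle Rbl2 and Ccng2 rose by 1.90 and 0.74 and 6 fell, among them Cdkn1a (-1.64) and Cdkn3 (-1.45). Some markers of thymic cells moved with the comparison. Of 10 markers of thymic epithelium 6 rose and 2 fell, with a median per array between 0.30 and 1.15. Of 7 fibroblast markers 3 rose and 1 fell (0.06 to 0.52), and of 13 markers of double-positive thymocytes 2 rose and 6 fell (-0.45 to -0.08). Medians per array were -0.01 to 0.19 for 10 markers of early progenitors and -0.13 to 0.08 for 10 myeloid markers. For 7 B cell markers they were -0.11 to 0.18, and for 4 erythroid markers -0.02 to 0.54. The part of all these markers in the values of the 46 genes was not tested.

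After antigenic peptide few of the genes were called at 3 h, and more were called lower at 6 and 12 h. At 3 h 1 of the 46 genes rose and 2 fell (6.52%; 2.71% of all probes), with a median of -0.03. At 6 h 1 rose and 6 fell (15.2%; 4.57% of all probes called, 2.54% called lower), with a median of -0.18, and at 12 h 1 rose and 10 fell (23.9%; 3.38% of all probes called, 1.72% called lower), with a median of -0.38. The gene that rose was Ccnd2 at each time, and Ccne2 fell at each time. The 3 h arrays were all of slide series 13, but only 2 arrays at 6 h and 2 at 12 h were. Time and slide set therefore cannot be fully told apart. The median of the gene means at 6 h was -0.065 on series 13 and -0.249 on the other slides. At 12 h it was -0.36 on both.

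Ccnd2 ran from 0.24 to 1.10 at 3 h (median 0.73), from 0.12 to 0.95 at 6 h (median 0.57) and from 0.29 to 0.95 at 12 h (median 0.53). It was above 0 on all 18 arrays, with means of 0.64 ± 0.32, 0.53 ± 0.34 and 0.58 ± 0.29 (SD, n = 6 each) and adjusted p of 0.0139, 0.0326 and 0.0136. Ccne2 ran from -0.88 to -0.32, from -0.50 to -0.17 and from -1.28 to -0.24 at these times, below 0 on every array, with means of -0.53, -0.36 and -0.65 and adjusted p of 0.0231, 0.0175 and 0.0472. Ccne1 was not called at any time (medians -0.21, -0.42 and -0.72; adjusted p 0.906, 0.25 and 0.0944).

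More licensing genes were called at 6 and 12 h than at 3 h. At 3 h Mcm2 was the 1 licensing gene that fell (-0.96 to -0.06, mean -0.59 ± 0.31 SD, adjusted p 0.047). At 6 h Mcm2, Mcm6, Mcm10 and Cdc6 fell, by 0.48, 0.51, 0.38 and 0.43, and each of the 11 licensing genes had a mean below 0, with a median of -0.29. No mitotic gene was called at 6 h, where their median was -0.06. The 6 h arrays differed by slide too: the median of the mitotic genes was 0.12 on the 2 arrays of series 13 and -0.10 on the other 4. From those 4 alone 21 of the 46 genes were called, while all 74 arrays in one fit gave 2. The share of all probes called in these fits is not given beside the counts. At 12 h Mcm5, Mcm6, Mcm10 and Cdc6 fell; the second Mcm10 probe was called neither at 6 h (-0.27, adjusted p 0.087) nor at 12 h (-0.43, adjusted p 0.127). Cdc6 ran from -0.47 to 0.08 at 3 h, from -0.91 to -0.09 at 6 h and from -1.80 to -0.61 at 12 h (medians -0.22, -0.39 and -1.18), with a 12 h mean of -1.14 ± 0.44 (SD, n = 6; adjusted p 0.0222). Mcm5 ran from -0.03 to 0.37, from -0.45 to 0.10 and from -0.74 to -0.46 at these times, with a 12 h mean of -0.54 ± 0.11 (SD, n = 6; adjusted p 0.0165). The 12 h arrays of Mcm5 were all below 0 and lay just under those of 6 h, yet its difference between those times was not called (-0.33 on the log2 scale, adjusted p 0.173), nor was that of Cdc6 (-0.70, adjusted p 0.0976).

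Mitotic genes were called at 12 h only. Plk1 ran from -0.57 to 0.19 at 3 h, from -0.38 to 0.18 at 6 h and from -1.49 to -0.49 at 12 h, where its mean was -1.01 ± 0.35 (SD, n = 6; adjusted p 0.0198). Stmn1 ran from -1.70 to -0.86 at 12 h (median -1.41, mean -1.35 ± 0.33 SD, adjusted p 0.00685), and Top2a from -1.06 to -0.13 (mean -0.71, adjusted p 0.0231). Plk1 and Stmn1 were the 2 genes called between 12 h and 6 h (4.35%; 0.607% of all probes), 1.8-fold lower at 12 h for Plk1 (log2 -0.85 ± 0.16, SE; adjusted p 0.0393) and 2.37-fold lower for Stmn1 (log2 -1.25 ± 0.17, SE; adjusted p 0.012), and no 12 h array of either overlapped the 6 h arrays. The call of Plk1 was lost when arrays were scaled to a common spread (adjusted p 0.0758). Between 6 h and 3 h 0 of the 46 were called by limma (0.134% of all probes). There were 5 at an unadjusted p under 0.05, a count given without the share of all probes at that threshold. Bub1 and Ttk had 12 h ranges of -0.93 to 0.21 and -0.99 to 0.23, across 0, and were not called at any time. Of the G1/S genes, Ccnd3 and E2f1 also fell at 12 h (-0.69 and -0.54, adjusted p 0.0379 and 0.0421), and Cdk2 at 6 h (-1.03 to -0.10, mean -0.65 ± 0.36 SD, adjusted p 0.0268).

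The 12 h arrays were in 2 sets for several genes. On slides 7 and 8 of series 13 Mcm2 stood at -0.67 and -0.18, and on the other 4 slides at -2.51, -2.57, -2.77 and -2.94. Cdk4 stood at -0.08 and -0.63 against -2.59, -2.67, -2.74 and -2.93, and Cdk2 at 0.40 and -0.61 against -2.53, -2.71, -2.65 and -3.02. Aurka stood at -0.15 and -0.23 against -1.42, -1.20, -1.29 and -1.29, and Cdc20 at -0.09 and -0.55 against -1.42, -1.22, -1.64 and -1.48. None of these 5 was called over the 6 arrays (adjusted p from 0.0537 for Cdc20 to 0.0896 for Cdk2), and the 4 arrays alone were all far below the partner. With the series as a block 27 of the 46 genes were called at 12 h, and from the 4 other slides alone 28; between 12 h and 6 h the counts were 9 and 16. Nr4a1 averaged 2.77 on the slides of series 13 and 1.25 on the other slides. At 3 h, where all arrays belonged to series 13, Cdk2 stood at -0.48 and 0.12 on slides 3 and 4 and from -1.71 to -1.34 on the others. Without those slides 6 genes were called. The share of all probes called in these alternative fits is not given, so their counts are not read as particular to the 46 genes.

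**Figure D4:**
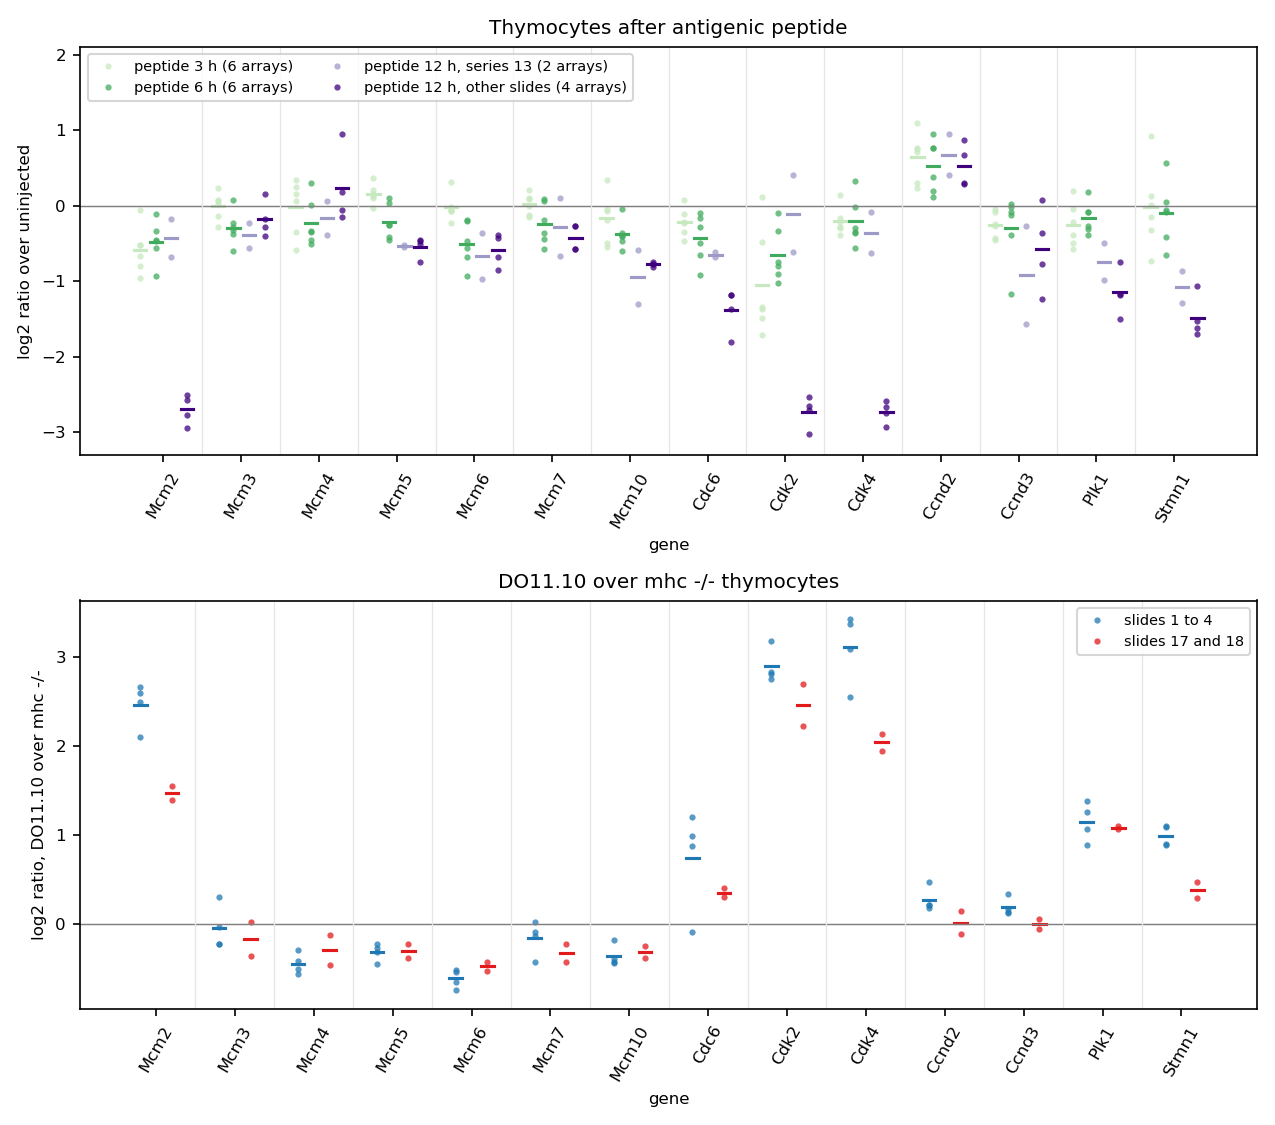
The upper panel shows each array's log2 ratio over uninjected DO11.10 thymocytes at 3, 6 and 12 h after peptide, with the 12 h arrays split into series 13 (2 arrays) and other slides (4 arrays); the lower panel shows DO11.10 over mhc -/- by slide number, and bars are means. Mcm2, Cdk2 and Cdk4 lie between -3.02 and -2.51 on the 4 other 12 h slides and between 1.40 and 3.43 in DO11.10 over mhc -/-. Uninjected DO11.10 is the partner in the upper panel and the test RNA in the lower, so its signal enters them with opposite sign.

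Of the further genes, 1 of 40 replication genes fell at 3 h (the chromatin assembly subunit Chaf1a, -0.75), 3 at 6 h and 7 at 12 h, led by Chaf1b (-1.28) and Chaf1a (-1.19). Of the 58 genes of the mitosis list 0, 3 and 12 fell, the last led by Cdca7 (-1.28), Incenp (-1.08) and Wee1 (-0.94). The 3 at 6 h were Cdc25a, Cdca7 and Mybl2, genes of the G1/S boundary rather than of G2 and M. The CDK inhibitor Cdkn1a rose by 1.24, 1.12 and 0.78 at 3, 6 and 12 h (adjusted p 0.00338, 0.000358 and 0.0395), and Myc rose by 1.13 at 3 h. Of 10 epithelial markers 5, 6 and 3 fell at 3, 6 and 12 h, with medians per array of -0.97 to -0.53, -0.70 to -0.31 and -0.12 to 0.46. The list was divided at 12 h. Prss16, Psmb11 and Ccl25, which fell at each time, were still at -1.96, -1.97 and -1.34. Krt5, Krt8 and Krt18 stood at 0.905, 0.883 and 0.784 and were not called. The 13 double-positive markers had medians of -0.29 to -0.21, -0.50 to -0.10 and -0.39 to -0.09, and the 10 myeloid markers -0.36 to -0.11, -0.32 to -0.19 and -0.24 to 0.74. The 7 fibroblast markers had -0.61 to -0.13, -0.36 to -0.05 and -0.36 to 0.56, and the 4 erythroid markers -0.49 to -0.11, -0.73 to -0.17 and -0.59 to 0.18. Of 10 markers of early progenitors, 0, 2 and 2 rose and 0, 2 and 1 fell at 3, 6 and 12 h, where at 12 h Kit and Spi1 rose by 1.52 and 0.81 and Notch1 fell by 1.19. Their part in the values of the 46 genes was not tested.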

How the data were processed

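RNA of 74 two-colour arrays was compared as log2 ratios of 16463 probes. The log2 ratios are as the authors deposited them in the series matrix, with 1 value per probe and array; the base of the log was assumed, and the sources used here do not state the background correction or normalization. Column medians ran from -0.021 to 0.023, and no value was missing. Cy5 and Cy3 were read from array titles, since the labels name Cy3 for both channels. Probes were named from the platform annotation, and where a gene had more than 1 probe the first row was used.

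Each array was centred on its median. Groups were fitted with limma 3.58.1 (R 4.3.3; lmFit, eBayes, statmod 1.5.0 for block correlations) with dye orientation as a term, each comparison using only its own groups, and p-values were adjusted by Benjamini-Hochberg over all probes, with a threshold of 0.05. MEF2D-VP16 and Nur77 share 4 empty-virus arrays, and HDAC7-VP16 and PMA with ionomycin share 12. The fit was tested on simulated data. Precision is limited by the number of arrays.

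Members and gene lists were chosen with earlier results of these data known. Named with values are up to 3 called members per role and comparison by size, Mcm5, Cdc6, Ccne1, Ccne2, Plk1, Bub1, Ttk and Aurka throughout, and up to 3 called genes per further list; Nr4a1 checks stimulus and construct. Other genes shown by slide set were chosen after their values were seen. Lists and markers of other cell types were fixed by name. Alternatives changed centring, scale, the dye term, arrays in the fit, probe averaging, slide series and single arrays. Sequences are from RefSeq.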

Additional observations from a re-analysis of the deposited data

Results flagged for a closer look

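In 130 groups of 4 to 10 values, 7 had a single array far from the others, about what chance flags (1 in 20 groups). Mcm5 on the Nur77 arrays was -0.39 on 1 array and -0.017 to 0.024 on the others, and Cdc6 there was 0.174 on 1 array and -0.231 to -0.191 on the others. At 12 h of peptide Mcm5 was -0.743 on 1 array and -0.542 to -0.457 on the other five. At 3 h Ccne2 was -0.884 on 1 array and -0.529 to -0.323 on the others, and the median of the 8 G1/S genes was 0.0895 on 1 array and -0.329 to -0.204 on the others. At 6 h Aurka was -0.247 on 1 array and 0.031 to 0.189 on the others, and with HDAC7-VP16 it was 1.384 on 1 array and -0.638 to 0.148 on the other nine. Between 12 h and 6 h of peptide the test of the difference itself was passed by Plk1 (-0.8515 on the log2 scale) and Stmn1 (-1.2455).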

How the results depend on the processing

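No gene called in a main fit reversed its direction in the alternatives run. Changes of sign in genes not called there were not counted. MEF2D-VP16 against empty virus (23 genes) gave 17 to 33 over its alternatives, 17 to 21 without single arrays. With all 74 arrays in one fit, counts went from 1 to 0 in the larger empty-virus group, from 3 to 1 in the smaller one, from 1 to 0 for HDAC7-VP16, from 4 to 2 for Nur77, from 12 to 19 for PMA with ionomycin, from 0 to 1 for HDAC7 DP, from 7 to 2 and 11 to 19 at 6 and 12 h of peptide, and from 2 to 8 between those times. Without the dye term 0 genes were called in the smaller empty-virus group and 1 for Nur77. Scaled arrays gave 2 for Nur77 and 1 between 12 h and 6 h. Slide series 14 and 15 alone gave 0 and 0 for the larger empty-virus group, 0 and 3 for HDAC7-VP16 and 0 and 4 for PMA with ionomycin, and series 14 gave 2 for HDAC7 DP. With same-numbered slides averaged, HDAC7-VP16 gave 2 and PMA with ionomycin 6; against untreated cells HDAC7-VP16 gave 3 and HDAC7 DP 15. With the 2 unsettled empty-virus arrays turned, that group gave 0 and HDAC7-VP16 2, and with them left out HDAC7-VP16 gave 2. Slides 13 and 14 alone gave 3 and slides 15 and 16 alone 21 for PMA with ionomycin; slides 17 and 18 against 15 and 16 gave 6 and slides 19 and 20 against 13 and 14 gave 2 for HDAC7 DP. Peptide at 3 h gave 6 without slides 3 and 4 of series 13; outside series 13 the counts were 21 at 6 h, 28 at 12 h and 16 between them, and with the series as a block 27 and 9. Leaving out single arrays gave 0 to 4 in the smaller empty-virus group and 1 to 5 for Nur77. The splits by slide pair, the 3 h count without slides 3 and 4, and MEF2D-VP16 against Nur77 were chosen after seeing the data. Shares of all probes called are given for the main fits only, so a larger count in an alternative is not read as particular to the 46 genes. The cause of these differences was not tested, except that splits and single series leave fewer arrays. Of single genes, 1838 comparisons with an alternative kept their side of the threshold, 194 lost a call and 46 gained one. No paired analysis was possible because the labels number slides, not replicates, and do not say that groups naming the same slide number or series share a sample; series were blocked where given above. Against mhc -/- thymocytes Kif11 lost its call in 4 of 6 alternatives, Mcm7 and Mcm10 in 2, and Pola1 and Rbl1 in 1. Spot signal over background was not used, so limits for dim probes are unknown.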
